A study of Mus musculus with 15 samples.

Results

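MiRNAs of αTC1-6 cells that had been exposed to proinflammatory cytokines for 48 h were compared with those of matched untreated controls of the same time point. αTC1-6 is a mouse cell line derived from a glucagonoma, a tumour of the glucagon-secreting α cells of the pancreatic islet, and it was used at passages 20 to 40. The comparison rests on 6 of the 15 samples of the series, 3 untreated and 3 treated, chosen by cell line, treatment and time in the labels. Treated cells received IL1b at 50 IU/ml, IFNg at 1000 IU/ml and TNFa at 1000 IU/ml together, so the 3 cytokines cannot be told apart. The study sets α cells, which it describes as resistant to cytokine-induced apoptosis, beside β cells, and the 48 h samples give the later of its 2 time points. The other 9 samples are treated and untreated αTC1-6 at 24 h and untreated βTC1, an insulinoma line. The methods call the replicates independent and biological, whereas the labels give only a replicate number.

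MiRNAs are short RNAs, cut as a duplex from a hairpin precursor, that guide Argonaute proteins to partly complementary sites in mRNAs and lower the output of those mRNAs. Pairing depends mostly on the seed, bases 2 to 8 of the miRNA, so that miRNAs with the same seed share many targets. One strand of the duplex is usually kept and the other is mostly degraded. An asterisk in these tables marks the minor strand by name. Main and minor strand below follow this naming, which the measured levels did not bear out for every hairpin. Cytokine signalling through NF-κB is known to induce miR-146a, whose targets include the adaptors IRAK1 and TRAF6 of the same pathway.

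The mature sequences below were read from RefSeq (GRCm38.p6) for the miRNAs on which the comparison turns, 5′ to 3′ in lower case with the seed in capitals. Entries were read for 30 assays. MiR-801 and miR-220, which are named below, had no entry there and are shown without a sequence. The first set holds miRNAs with higher values in treated cells, and with them miR-146b and miR-125a-5p, which share a seed with members of the set. MiR-146a (chr11:43374435-43374456, minus strand) and miR-146b share the seed and 20 of their 22 bases. MiR-125b-5p, miR-125a-5p and miR-351 share a seed but are encoded on chromosomes 9 and 16, 17 and X, respectively. MiR-203, miR-34a, miR-155 and miR-21 each have a seed of their own in this set.
miR-146a: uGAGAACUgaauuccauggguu
miR-146b: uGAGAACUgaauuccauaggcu
miR-351: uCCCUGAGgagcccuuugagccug
miR-125b-5p: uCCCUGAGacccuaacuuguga
miR-125a-5p: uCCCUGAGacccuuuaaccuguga
miR-448: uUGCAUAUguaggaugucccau
miR-203: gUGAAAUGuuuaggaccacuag
miR-34a: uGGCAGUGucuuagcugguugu
miR-155: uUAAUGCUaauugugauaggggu
miR-21: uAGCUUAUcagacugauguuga

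The next set holds miRNAs with lower values in treated cells. MiR-298 (chr2:174267553-174267575, minus strand) and miR-296-3p (chr2:174267058-174267079, minus strand) are neighbours in the imprinted Gnas domain, and miR-296-5p comes from the other arm of the miR-296 hairpin. MiR-370, miR-431, miR-409-3p, miR-411* and miR-379* are encoded in the imprinted Dlk1-Dio3 domain of chromosome 12. MiR-411* and miR-379* have the same seed and differ at 2 of 22 bases. The miR-379* assay is designed for rat, and the mouse sequence is shown.
miR-298: gGCAGAGGagggcuguucuuccc
miR-296-3p: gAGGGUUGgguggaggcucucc
miR-296-5p: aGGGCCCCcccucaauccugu
miR-370: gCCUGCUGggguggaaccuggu
miR-431: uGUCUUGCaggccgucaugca
miR-409-3p: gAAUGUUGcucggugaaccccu
miR-411*: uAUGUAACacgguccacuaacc
miR-379*: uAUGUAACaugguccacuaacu
miR-149: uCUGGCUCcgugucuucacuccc

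The last set shows minor strands whose main strands are on the other card, with both arms of miR-200c (chr6:124718324-124718346 for the main arm, minus strand), and the reference miR-26a with miR-26b. Let-7a* and let-7f* share the seed and differ at 3 of 22 bases, and let-7d* has another seed and differs from let-7a* at 5. MiR-26a and miR-26b share the seed.
miR-200c*: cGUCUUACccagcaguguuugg
miR-200c: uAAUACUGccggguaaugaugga
let-7a*: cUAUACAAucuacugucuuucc
let-7f*: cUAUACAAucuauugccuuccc
let-7d*: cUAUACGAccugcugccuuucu
miR-26a: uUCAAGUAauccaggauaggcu
miR-26b: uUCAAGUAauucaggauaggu

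Levels were read by real-time PCR in the wells of array cards A and B, which carry 375 and 209 miRNA assays, 67 of them designed for rat. The readout is the threshold cycle (Ct), at which the fluorescence of a well crosses a set level. ΔCt is the Ct minus that of miR-26a in the same sample, so a lower ΔCt is a higher level, and 1 cycle is 1 unit on the log2 scale. All fold changes are treated over untreated on this scale, positive when the miRNA was higher in treated cells. Between 493 and 508 miRNAs per untreated sample and 510 to 521 per treated sample had a Ct. MiR-26a itself had a Ct of 18.98, 16.98 and 17.95 in untreated replicates 1, 2 and 3, and of 18.49, 17.71 and 17.44 in the treated ones. MiR-26b had a ΔCt of 1.98, 1.92 and 3.02 in untreated and of 2.28, 2.24 and 3.27 in treated cells, a log2 fold change of -0.29. In these lysates of whole dishes, a change in the number of cells that hold a miRNA and a change in the amount per cell cannot be told apart. The ΔCt profiles of the samples of replicate 3 stood apart, with Pearson's r of 0.763 to 0.866 over 410 miRNAs in the pairs that include one and of 0.90 to 0.958 in the other pairs. Without both samples of replicate 3, 16 of the 40 named miRNAs with an unadjusted p-value under 0.05 that could still be tested kept such a p-value and 0 changed sign. MiR-203 and miR-298 (log2 fold changes 2.57 and -3.45, Limma unadjusted p-values 0.0225 and 0.00981) were among the 16, and miR-149 and miR-125b-5p (-2.28 and 1.604, 0.0967 and 0.0763) were not.

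Of the 534 miRNAs tested, 3 (0.562%) passed as higher and 0 as lower (Limma test, Benjamini-Hochberg adjusted p-values under 0.05). Among these, miR-146a alone was measured in both groups. For miR-448 and miR-351, each untreated value is the Ct of 40 that stands for an undetermined well. Their p-values therefore hold no measured untreated spread and do not test a rise between measured levels. With undetermined wells as missing, only miR-146a passed. Before adjustment, 58 miRNAs (10.9%) had a p-value under 0.05, 8 of them higher (1.5%) and 50 lower (9.36%) in treated cells. The labels do not say that the replicates are separate cultures, so p-values can at most measure the spread between these samples. With 3 samples against 3, an exact two-sided permutation test of a single miRNA cannot give a p-value below 0.1. Same-numbered treated and untreated samples deviated together, and with the replicate number as a block 0 miRNAs passed the adjusted threshold while 122 (22.8%) had an unadjusted p-value under 0.05, 14 higher (2.62%) and 108 lower (20.2%).

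MiR-146a had a ΔCt of 3.99, 3.98 and 4.03 in untreated replicates 1, 2 and 3 and of 0.28, 0.29 and -0.03 in treated ones. The groups were separated by more than 3 cycles and the samples within each group lay close together. Its untreated Ct values of 22.97, 20.95 and 21.97 all lie just below a whole cycle, as do many wells of these cards. Its level was 14.2-fold higher in treated cells (log2 fold change 3.82, standard error 0.263, Limma adjusted p-value 0.00478). With the replicate block the adjusted p-value was 0.0775, and it was 0.0724 without cytokine-treated replicate 2, 0.0800 without cytokine-treated replicate 3, 0.642 without both samples of replicate 3 and 0.252 without normalization. Its relative miR-146b had a Ct only in the second replicates, with a ΔCt of 12.62 in the untreated and of 14.52 in the treated sample, and was not tested. The minor strand miR-146b* had a ΔCt of 11.46, 10.94 and 11.90 in untreated and of 12.61, 12.20 and 11.76 in treated cells (log2 fold change -0.76, Limma unadjusted p-value 0.124). MiR-146a was thus the one of these 3 assays with a difference past the threshold.

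MiR-448 and miR-351 were detected in treated cells and undetermined in all 3 untreated samples. MiR-448, encoded on the X chromosome in an intron of the serotonin receptor gene Htr2c, had a Ct of 25.999, 23.117 and 26.582 in treated replicates 1, 2 and 3. With undetermined wells at a Ct of 40, its log2 fold change of 14.68 is a lower bound. The Limma adjusted p-value of 0.00478 (0.134 with the replicate block) rests on these set untreated values. It was undetermined in all 9 samples of the other conditions as well, both in the normalized and in the non-normalized table. The 3 treated samples of 48 h were thus the only ones of the 15 with a Ct for miR-448.

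MiR-351 had a Ct of 29.4, 29.5 and 26.9 in treated cells, and its log2 fold change of 11.32 is likewise a lower bound. Its Limma adjusted p-value of 0.00478 (0.0775 with the replicate block) also rests on set untreated values. The tables differ on this assay outside the 48 h samples: the non-normalized one gives a Ct of 27.3 for untreated replicate 3 and of 27.6 for cytokine-treated replicate 1 at 24 h, which the normalized one lists as undetermined and as blank. In untreated βTC1 the non-normalized table gives a Ct of 37.01 and 27.98 for replicates 1 and 2, undetermined in the normalized one, and both give 26.9 for replicate 3. The cards also carry an assay for rat miR-351, which had a Ct in all 6 samples. Its ΔCt was 14.08, 15.13 and 14.96 in untreated and 12.20, 16.10 and 15.66 in treated cells (log2 fold change 0.07, Limma unadjusted p-value 0.956). The assays for the mouse and the rat form therefore gave different results on the same RNA. Both treated-only miRNAs fall below the 3 Ct values needed for testing when any treated sample is left out.

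**Figure D1:**
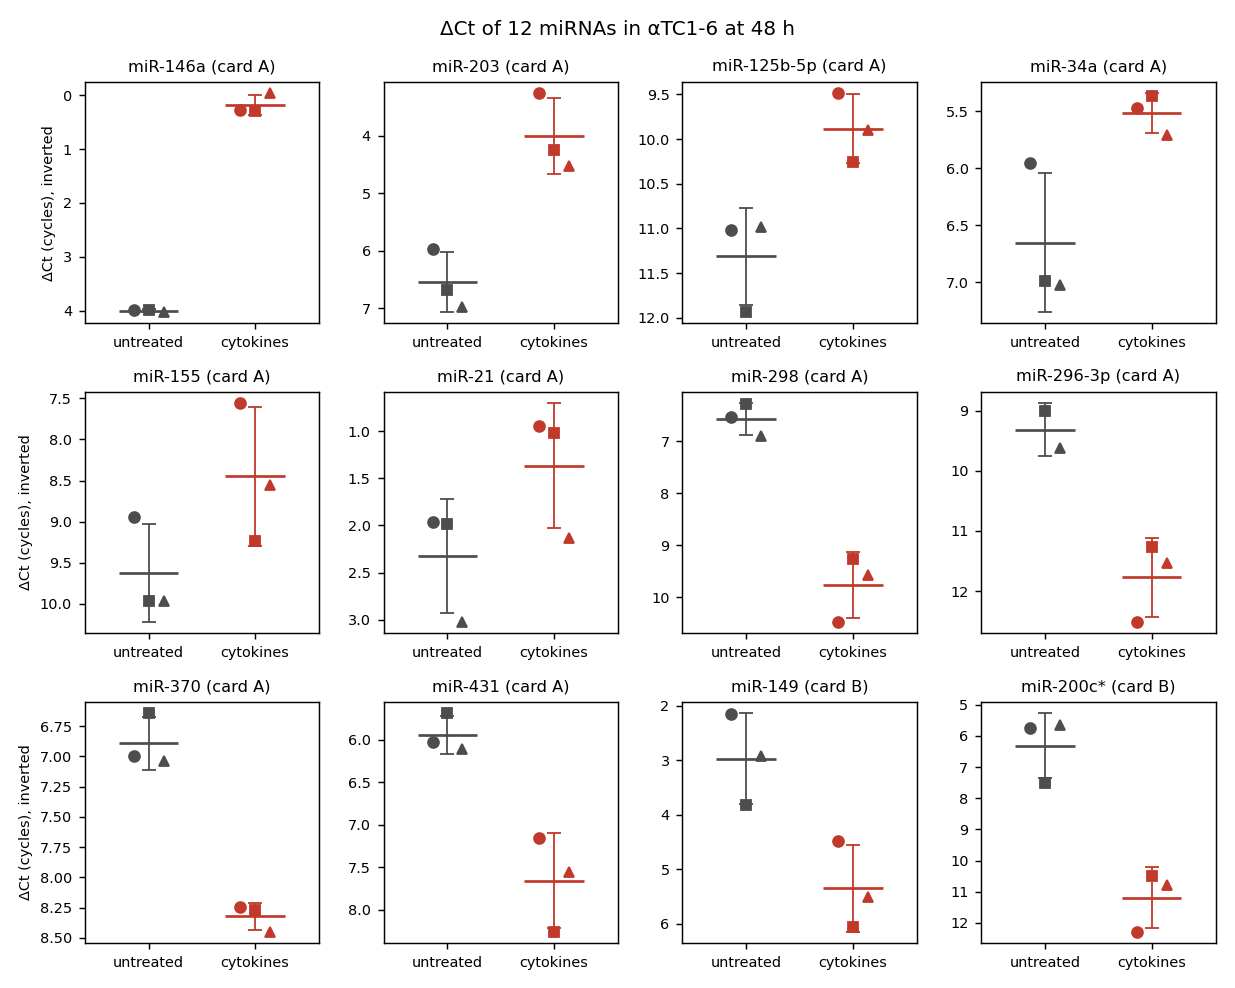
ΔCt of 12 miRNAs in untreated (grey) and cytokine-treated (red) αTC1-6 at 48 h, on inverted axes in cycles so that higher levels stand higher. Circles, squares and triangles are replicates 1, 2 and 3, horizontal bars are means and vertical bars SDs over the 3 samples (2 for untreated miR-296-3p). The treated samples of miR-146a lie at 0.29 or below and the untreated ones at 3.98 or above, whereas the groups of miR-21 overlap.

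MiRNAs linked to NF-κB and inflammatory signalling were measured with 19 assays, of which 17 could be tested. Beside miR-146a, 1 more of them was higher with an unadjusted p-value under 0.05 and 0 were lower, where 1.5% of all miRNAs tested were higher and 9.36% lower. Of the 17, 9 had a positive and 8 a negative log2 fold change, down to -5.23, and their median was 0.20 against -0.51 over all 534 miRNAs. MiR-125b-5p, which is induced by NF-κB in several cell types, had a ΔCt of 11.01, 11.94 and 10.98 in untreated and of 9.49, 10.26 and 9.90 in treated cells. The groups did not overlap (log2 fold change 1.43, standard error 0.421, Limma unadjusted p-value 0.0189, adjusted 0.41). MiR-125a-5p, of the same seed, had a ΔCt of 2.01, 2.82 and 3.04 in untreated and of 1.78, 3.27 and 3.23 in treated cells, with groups that overlap (log2 fold change -0.14, Limma unadjusted p-value 0.822).

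MiR-155, which is made from the Bic transcript of activated immune cells, had a ΔCt of 8.94, 9.97 and 9.97 in untreated and of 7.56, 9.24 and 8.55 in treated cells. Each treated sample was higher than the untreated one of the same number, but the treated second replicate lay below the untreated first (log2 fold change 1.18, Limma unadjusted p-value 0.0986). MiR-21, an abundant miRNA that represses the tumour suppressor PDCD4, had a ΔCt of 1.96, 1.98 and 3.03 in untreated and of 0.95, 1.02 and 2.13 in treated cells. Treated samples were higher by 1.01, 0.96 and 0.90 cycles within the pairs of replicates 1, 2 and 3, and the samples of replicate 3 lay about a cycle below the others (log2 fold change 0.96, Limma unadjusted p-value 0.125, and 0.0117 with the replicate block). The minor strand miR-21* had a log2 fold change of the same sign, 1.14 (Limma unadjusted p-value 0.175).

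MiR-203, which in skin restrains the p53 relative p63, had a ΔCt of 5.97, 6.68 and 6.98 in untreated and of 3.26, 4.25 and 4.52 in treated cells. The groups did not overlap, and its level was 5.80-fold higher in treated cells (log2 fold change 2.54, standard error 0.497, Limma unadjusted p-value 0.00365, adjusted 0.208). MiR-34a, a direct target gene of p53, had a ΔCt of 5.95, 6.99 and 7.02 in untreated and of 5.48, 5.37 and 5.71 in treated cells (log2 fold change 1.13, Limma unadjusted p-value 0.0380). The treated samples all lay above the untreated ones, by 0.24 cycles or more. Of the 7 p53-linked assays tested, 2 had a positive and 5 a negative log2 fold change, among them miR-34c with -1.14 and miR-34c* with -1.20 (Limma unadjusted p-values 0.162 and 0.0312).

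MiR-801 and miR-547 complete the 8 miRNAs that were higher with an unadjusted p-value under 0.05. MiR-801 had a ΔCt of 6.70, 7.73 and 7.87 in untreated and of 4.49, 6.16 and 4.05 in treated cells (log2 fold change 2.53, Limma unadjusted p-value 0.0152), and was the only one of the 8 measured on card B. MiR-547 was at a low level, with a ΔCt of 13.977, 13.996 and 13.998 in untreated and of 13.10, 12.99 and 13.22 in treated cells (log2 fold change 0.89, Limma unadjusted p-value 0.0167). Of the 410 miRNAs with a Ct in all 6 samples, 7 had treated samples that all lay above the untreated ones (1.71%), and 90 had treated samples that all lay below (22%).

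Among the miRNAs of card A with lower values in treated cells, miR-298 had the lowest p-value. It had a ΔCt of 6.53, 6.29 and 6.90 in untreated and of 10.48, 9.26 and 9.57 in treated cells. All treated samples were lower by more than 2 cycles, a 9.13-fold difference (log2 fold change -3.19, standard error 0.436, Limma unadjusted p-value 0.000713, adjusted 0.0610, and 0.226 with the block). MiR-296-3p had a ΔCt of 9.004 and 9.625 in untreated replicates 2 and 3, with replicate 1 blank in the table, and of 12.52, 11.27 and 11.54 in treated cells (log2 fold change -2.46, Limma unadjusted p-value 0.0111). The other arm of the same hairpin, miR-296-5p, was more abundant and differed less, with a ΔCt of 1.05, 1.86 and 1.06 in untreated and of 1.02, 2.30 and 1.89 in treated cells (log2 fold change -0.41, Limma unadjusted p-value 0.428). All 3 assays of this locus had negative log2 fold changes, as had most of the 534 miRNAs tested (median -0.51, upper quartile -0.01).

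The Dlk1-Dio3 domain of chromosome 12 holds one of the largest miRNA clusters of the mouse genome, transcribed from the maternal chromosome and abundant in brain and endocrine cells. Of 70 members tested, 61 had a negative log2 fold change, and the median was -0.84. Most of the 534 miRNAs tested were negative too, with a median of -0.51 and an upper quartile of -0.01. Of the members, 11 were lower with an unadjusted p-value under 0.05 and 0 were higher. The 11 make 15.7% of the members, against 9.36% of all miRNAs tested. MiR-370 had a ΔCt of 6.99, 6.64 and 7.04 in untreated and of 8.25, 8.27 and 8.45 in treated cells, with all treated samples lower by more than 1 cycle (log2 fold change -1.43, standard error 0.276, Limma unadjusted p-value 0.00336, adjusted 0.208). MiR-431 had a ΔCt of 6.03, 5.69 and 6.11 in untreated and of 7.16, 8.26 and 7.55 in treated cells (log2 fold change -1.71, Limma unadjusted p-value 0.00715). On card A the domain also gave miR-409-3p (-1.25), miR-154 (-1.12) and miR-494 (-1.09) as log2 fold changes.

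The 50 Dlk1-Dio3 members tested on card A had a median log2 fold change of -0.71 and the 20 on card B one of -1.28, which became -0.33 and -0.40 with each card centred on its own miRNAs. On card B the assay for rat miR-379* had a ΔCt of 7.57, 7.69 and 6.42 in untreated and of 11.59, 10.27 and 9.48 in treated cells (log2 fold change -3.22, Limma unadjusted p-value 0.00564). MiR-411*, of the same seed and encoded beside it, had a ΔCt of 8.22, 9.15 and 8.96 in untreated and of 10.51, 11.29 and 11.59 in treated cells (log2 fold change -2.35, Limma unadjusted p-value 0.00337). In both, every treated sample was lower than every untreated one. MiR-673-3p (-2.40), miR-300 (-2.33), miR-485* (-1.51) and miR-376b* (-1.26) are the other members with an unadjusted p-value under 0.05, and none of the 11 passed the adjusted threshold.

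Cards A and B differed as wholes. The median log2 fold change was -0.33 over the 342 miRNAs tested on card A and -0.83 over the 192 on card B. On card A 30 miRNAs (8.77%) had an unadjusted p-value under 0.05, on card B 28 (14.6%). On card A, 7 miRNAs were higher (2.05%) and 23 lower (6.73%), and on card B 1 was higher (0.521%) and 27 were lower (14.1%). MiR-26a, the reference for both, is measured on card A alone. The median ΔCt of card B was 7.90, 9.16 and 8.13 in untreated and 9.27, 10.08 and 9.94 in treated samples, so the treated ones all lay above, while that of card A was 7.52, 7.99 and 8.03 in untreated and 7.81, 8.28 and 8.31 in treated samples.

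The non-coding reference RNAs U6 and small nucleolar RNAs, which are spotted on both cards and are no miRNAs, differed in the same direction. On card A their mean ΔCt was -1.55, -2.09 and -1.70 in untreated and -1.38, -1.51 and -1.45 in treated samples, a log2 difference of -0.33 between group means with SDs of 0.283 and 0.0657 over 3 samples each, and all 3 treated values were above all 3 untreated values. On card B it was -2.54, -2.04 and -3.38 in untreated and -1.92, -1.45 and -2.59 in treated samples, a log2 difference of -0.67 with SDs of 0.680 and 0.575. There the groups overlap, while within the pairs of replicates 1, 2 and 3 the treated ΔCt was greater by 0.62, 0.59 and 0.79 cycles (0.17, 0.58 and 0.25 on card A). Whether the card itself or its miRNAs account for the lower values was not tested. When each card of each sample was centred on the median deviation of its miRNAs, an alternative chosen after seeing the data, the medians became 0.06 on card A and 0.05 on card B. Relative to the other miRNAs of their card, 38 miRNAs (7.12%) then had an unadjusted p-value under 0.05, 16 of them higher (3%) and 22 lower (4.12%), in place of 8 and 50.

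**Figure D2:**
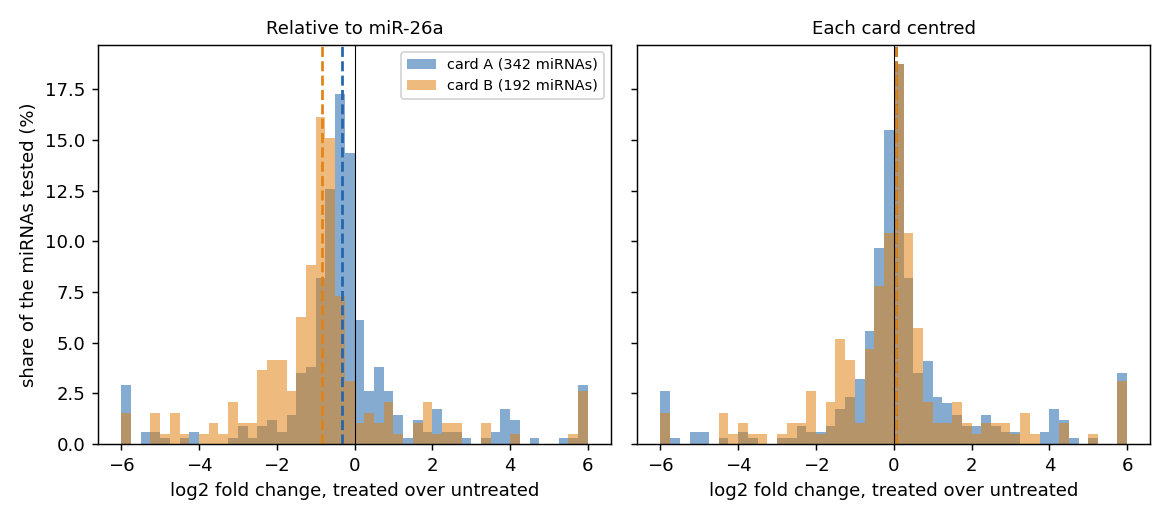
Histograms of the log2 fold change at 48 h (x axis, treated over untreated) as the share of the miRNAs tested on each card (y axis, percent), for 342 miRNAs on card A (blue) and 192 on card B (orange). Dashed lines are medians, at -0.33 and -0.83 relative to miR-26a (left) and at 0.06 and 0.05 with each card centred (right). Values beyond 6 in size are drawn in the outermost bins.

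After centring of each card, miR-146a (log2 fold change 4.21), miR-448, miR-351 and miR-203 passed the adjusted threshold, which is 0.749% of those tested. For miR-448 and miR-351 the untreated values were again those set for undetermined wells. MiR-203 then had a log2 fold change of 2.92 (Limma adjusted p-value 0.0119, and 0.0587 with the replicate block). In the NF-κB list, 6 of 17 assays were higher with an unadjusted p-value under 0.05, against 3% of all miRNAs tested, and 0 were lower. They were miR-146a, miR-125b-5p, miR-125b*, miR-155 (1.56, Limma unadjusted p-value 0.00792), miR-21 (1.34, 0.0248) and miR-21* (2.01, 0.0406). Both arms of miR-125b and of miR-21 are thus counted, and of the 6 only miR-146a passed the adjusted threshold. The list and this scaling were chosen with results of these data known. Against U6 and small nucleolar RNAs within each card, the Limma unadjusted p-value was 0.0799 for miR-155 and 0.0257 for miR-125b-5p. MiR-34a (1.52), miR-801 (3.40), miR-547 (1.27), miR-23a (0.99), miR-106a (0.94), miR-206 (0.81) and miR-466c-5p (2.48) were the remaining miRNAs that were higher after centring. For both arms of miR-125b and of miR-21 the difference had the same sign under both scalings.

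In both scalings, 8 miRNAs were higher and 20 were lower with an unadjusted p-value under 0.05. The 20 comprise 10 of the 23 of card A and 10 of the 27 of card B. They include miR-298 (-2.81 after centring), miR-296-3p (-2.26), miR-187 (-2.39), miR-431 (-1.33), miR-370 (-1.05), miR-361 (-1.04), miR-107 (-0.99), miR-409-3p (-0.87) and miR-138 (-0.57) on card A. On card B they include miR-200c* (-4.00), miR-196a* (-2.45), rat miR-379* (-2.35), miR-149 (-1.51), miR-411* (-1.48), miR-300 (-1.45), let-7a* (-1.29), miR-191* (-1.27), let-7f* (-1.11) and miR-700 (-1.03). MiR-107, of the miR-103 family that affects insulin sensitivity, and miR-361 thus kept lower values relative to the other miRNAs of their card, whereas miR-27a and miR-27b, which differ at 1 of 21 bases, went from -0.69 and -0.94 to -0.31 and -0.56 and from Limma unadjusted p-values of 0.0435 and 0.0330 to 0.379 and 0.0634.

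Minor strands, all measured on card B, made up 21 of the 50 miRNAs that were lower with an unadjusted p-value under 0.05. Of 118 minor strands tested, these are 17.8%, and 0 were higher, with a median log2 fold change of -0.96. The other 74 miRNAs of card B had 6 lower (8.11%) and 1 higher, with a median of -0.75. After centring the medians were -0.08 and 0.12, with 7 minor strands lower (5.93%) and 2 higher, and 3 of the others lower (4.05%) and 3 higher. The strands of a hairpin were compared only where both had a Ct in all 6 samples. This held for 58 hairpins, with the main strand, as named by the asterisk, on card A and the minor strand on card B. In most of them the minor strand had the higher mean ΔCt in untreated cells. In others it had the lower one, as for miR-200c* (6.31 against 11.24 for miR-200c) and miR-135a* (6.07 against 14.67 for miR-135a). The minor strand had the lower log2 fold change in 43 of them and the higher one in 15, with a median difference of -0.52. After centring of each card the counts were 32 and 26 and the median difference -0.03.

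**Figure D3:**
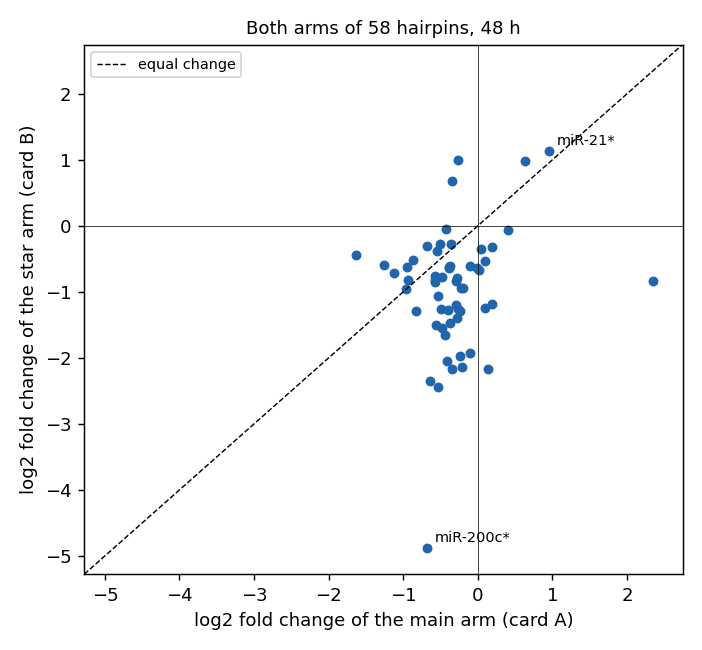
Log2 fold change of the minor strand (y axis, card B) against that of the main strand (x axis, card A) for 58 hairpins at 48 h, relative to miR-26a. The dashed line marks equal change. In 43 hairpins the point lies below the line, farthest for miR-200c* at -4.88, and both arms of miR-21 lie above 0.

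MiR-200c*, from a hairpin of the epithelial miR-200 family, had the lowest log2 fold change of the minor strands in these 58 hairpins. Its ΔCt was 5.75, 7.51 and 5.66 in untreated and 12.29, 10.49 and 10.78 in treated cells, so that the groups were separated by 2.97 cycles (log2 fold change -4.88, standard error 0.770, Limma unadjusted p-value 0.00139, adjusted 0.1). These are means of duplicate wells that disagreed most in untreated replicates 2 and 3. The first wells had a Ct of 25.1, 21.47 and undetermined in untreated and of 31.8, 27.74 and 29.47 in treated replicates 1, 2 and 3, and the second ones of 24.36, 27.51 and 23.61 and of 29.75, 28.65 and 26.97. With the first wells alone, which are also what the non-normalized table holds, the log2 fold change was -0.90 (Limma unadjusted p-value 0.865), with the undetermined well of untreated replicate 3 at a Ct of 40. The main arm miR-200c, with the other family members an inhibitor of the repressors ZEB1 and ZEB2, had a ΔCt of 11.07, 11.05 and 11.61 in untreated and of 11.47, 11.71 and 12.58 in treated cells (log2 fold change -0.68, Limma unadjusted p-value 0.167). Let-7a* had a ΔCt of 4.95, 6.47 and 5.88 in untreated and of 7.36, 8.20 and 8.25 in treated cells (log2 fold change -2.17, Limma unadjusted p-value 0.00918). For its main strand let-7a the log2 fold change was -0.34. The pairs let-7f (-0.24) and let-7f* (-1.98), miR-191 (-0.21) and miR-191* (-2.14), and miR-411 (-0.64) and miR-411* (-2.35) were of the same form. MiR-712* (-5.15) and miR-196a* (-3.32), both outside these hairpins, had treated samples spread over 4.4 and 3.7 cycles, respectively. The Limma unadjusted p-value of miR-196a* was 0.0980 with the first wells alone.

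MiR-149, which is no minor strand, had a ΔCt of 2.16, 3.83 and 2.92 in untreated and of 4.49, 6.06 and 5.51 in treated cells. Every pair of replicates differed by more than 2 cycles, and the groups did not overlap (log2 fold change -2.39, standard error 0.642, Limma unadjusted p-value 0.0135, adjusted 0.152, and 0.00127 unadjusted with the block). MiR-187, on card A, had a ΔCt of 10.04, 9.03 and 9.51 in untreated and of 11.96, 13.27 and 11.68 in treated cells (log2 fold change -2.77, Limma unadjusted p-value 0.00425, adjusted 0.208). MiR-220 was the reverse of miR-448, with a Ct in untreated cells and undetermined wells in treated ones. Its Ct in untreated replicates 1, 2 and 3 was 9.42, 25.9 and 27.4. The first of these is one of the 5 miRNA wells of that sample with a Ct under 12, so no size is given for the difference.

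MiRNA families were compared by the counts and medians of their members. Of 16 let-7 assays, 4 were lower with an unadjusted p-value under 0.05, all of them minor strands (let-7a*, let-7d*, let-7f* and rat let-7e*). These are 4 of the 7 on card B, where 14.1% of all miRNAs were lower, and 0 of the 9 on card A, where 6.73% were. After centring 2 of the 16 were lower, let-7a* and let-7f*. The 9 miR-30 assays and the 6 miR-29 assays had 0 members with an unadjusted p-value under 0.05, and their medians were -0.32 and -0.59 (0.39 and 0.02 after centring). MiR-29a and miR-30c were among the 5 most abundant miRNAs, with a log2 fold change of -0.48 and -0.41 that became -0.10 and -0.03 after centring. Of 24 assays for the miR-17-92 cluster and its paralogs 1 was lower (miR-106b*, -1.40), and of 8 of the miR-15 and miR-16 family 1 was lower (miR-15b, -0.83), beside 9.36% of all miRNAs tested. After centring 0 were lower in either list and miR-106a of the former was higher. MiR-15b was among the tightest, with a ΔCt of 1.98, 1.99 and 2.03 in untreated and of 2.88, 2.83 and 2.79 in treated cells (Limma unadjusted p-value 0.0192, and 0.225 after centring).

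The miR-322, miR-503, miR-351, miR-542 and miR-450 cluster of the X chromosome, to which miR-351 belongs, had a positive log2 fold change in 9 of 11 assays tested and a median of 0.76. Only the mouse miR-351 assay had an unadjusted p-value under 0.05, with all its untreated values set for undetermined wells. MiR-322, the most evenly measured of them, had a ΔCt of 13.04, 13.35 and 14.06 in untreated and of 13.06, 13.31 and 13.69 in treated cells (log2 fold change 0.13, Limma unadjusted p-value 0.754). The families encoded mostly in an intron of Sfmbt2 (miR-297, miR-466, miR-467 and miR-669) gave 20 tested assays with a median of -0.40, of which miR-467a* and miR-467b* were lower (-1.28 and -1.25). Both values shrank to -0.41 and -0.38 after centring. Of 24 tested assays of the X-linked testis cluster 2 were lower (miR-881*, -2.04, and miR-883b-3p, -2.06), a share near the 9.36% of all miRNAs tested, and 0 after centring, and of 15 pluripotency assays 0 had an unadjusted p-value under 0.05.

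**Figure D4:**
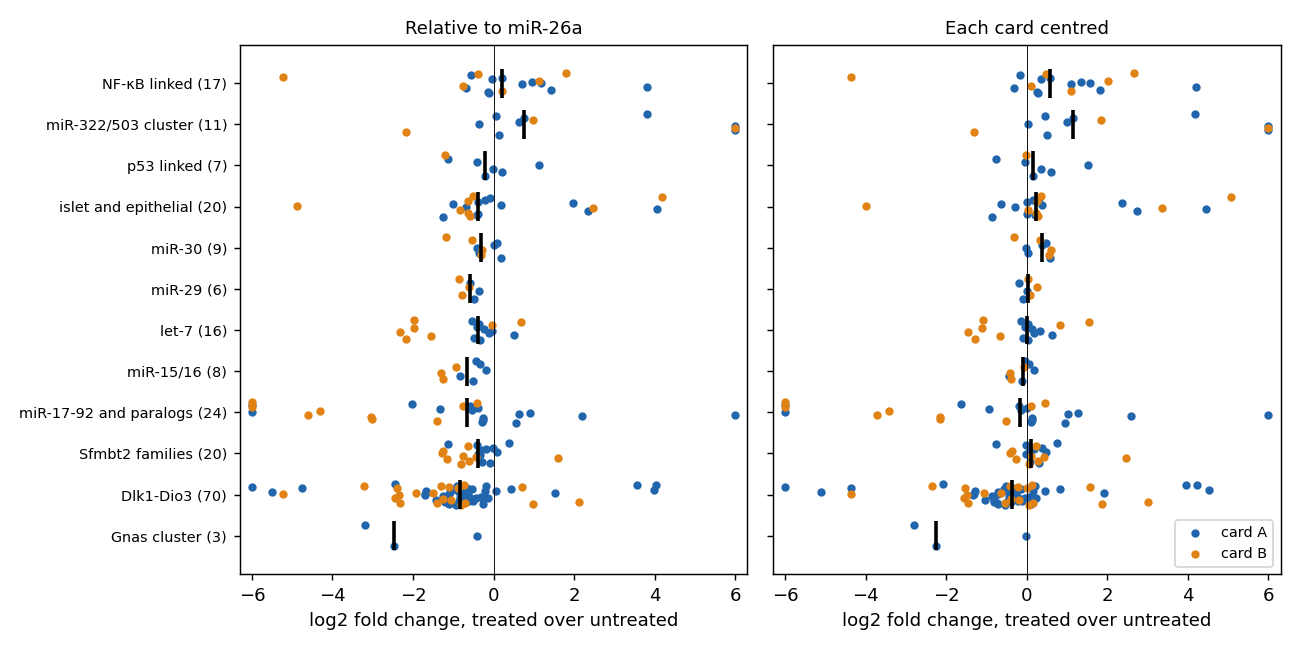
Log2 fold changes at 48 h (x axis) of the tested members of 12 miRNA lists (rows, number tested in brackets), relative to miR-26a (left) and with each card centred (right). Points are assays on card A (blue) or B (orange), black bars are list medians, and values beyond 6 in size are drawn at 6. The median of the NF-κB list is 0.20 at left and 0.58 at right, and that of the Dlk1-Dio3 domain -0.84 and -0.37.

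Markers of islet endocrine cells were present at uneven levels. In the miR-200 family, the mean untreated ΔCt was 11.24 for miR-200c, 11.82 for miR-200a and 12.93 for miR-141. For the arms miR-200c*, miR-200a* and miR-141* it was 6.31, 5.03 and 10.06. MiR-375, the islet miRNA that limits hormone secretion and is required for islet cell mass, was among the most abundant, with a ΔCt of -4.03, -2.63 and -2.99 in untreated and of -2.74, -1.76 and -2.12 in treated cells (log2 fold change -1.01, Limma unadjusted p-value 0.105, and 0.114 after centring). Each treated sample was lower than the untreated one of the same number, and the groups overlap. MiR-7a, also typical of islet endocrine cells, had a ΔCt of 2.63, 2.97 and 3.01 in untreated and of 3.46, 3.18 and 3.13 in treated cells (log2 fold change -0.39, Limma unadjusted p-value 0.226). Of the 20 islet and epithelial assays, 6 had a positive and 14 a negative log2 fold change, with a median of -0.39 (0.24 after centring). Their summed level, relative to miR-26a, ranged from 6.70 to 17.4 in untreated and from 3.80 to 7.18 in treated cells. MiR-375 makes up most of the lowest sum in each group, so the sums do not describe the list as a whole. The summed level of the 7 blood cell assays ranged from 0.00133 to 0.00385 in untreated and from 0.00100 to 0.00249 in treated cells. That of the 11 muscle and liver assays ranged from 0.00142 to 0.0920 in untreated and from 0.00257 to 39.4 in treated cells, and the highest of these sums comes from 1 well, rat miR-1* with a Ct of 13.2 in treated replicate 1, which was undetermined in the other treated samples. The sum of the 10 mesenchymal and vascular assays ranged from 0.00834 to 0.733 and from 0.00931 to 2.68, with the highest in the second replicates, where miR-214* had a Ct of 17.5 and 16.3, wells with a Ct under 12 being left out. That of the 3 exocrine assays ranged from 4.51e-06 to 0.000108 and from 0 to 0.112, the last from miR-216a with a Ct in treated replicate 2 alone. Tested were 5 of the 7 blood cell, 10 of the 11 muscle and liver, 9 of the 10 mesenchymal and vascular and 1 of the 3 exocrine assays. Rat miR-1* and miR-216a were not among them. Of those tested, 0 had an unadjusted p-value under 0.05 relative to miR-26a, and miR-206 of the muscle list was higher after centring. The part of these wells in the results was not tested. MiR-217 of the exocrine pancreas had no Ct in any of the 6 samples.

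The table of the cytokine comparison in the study names 22 miRNAs for 24 h and 48 h together, chosen there on the samples of both times, so that their directions are not independent evidence. In the values used here 7 were higher and 15 lower, with an unadjusted p-value under 0.05 for 4 and 11, and 1 (miR-146a) passed the adjusted threshold. By card, 15 are on card A, with 4 higher and 5 lower at that p-value, and 7 on card B, of which 0 were higher and 6 lower. The median over the 7 was -2.14, and -1.27 after centring of each card, when 5 of them were lower. Members that did not reach that p-value include miR-190 (-0.39) and miR-142-3p, whose ΔCt of 17.06, 16.71 and 14.98 in untreated and of 12.93, 17.27 and 14.86 in treated cells spread over more than 2 cycles in each group (log2 fold change 1.23, Limma unadjusted p-value 0.380).

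The 24 h samples have their own untreated controls and share no sample with those of 48 h. Of the 55 miRNAs with an unadjusted p-value under 0.05 at 48 h that were tested at both times, 44 had the same sign at 24 h, 24 of 27 on card A and 20 of 28 on card B. They were chosen by their p-value at 48 h. The share with the same sign over all miRNAs tested at both times was not determined, so the 44 cannot be set against it. The median log2 fold change of all miRNAs tested at 24 h was -0.27 on card A and 0.20 on card B. At 48 h it was -0.33 and -0.83, so that of card A was negative at both times. MiR-146a (3.30 at 24 h), miR-203 (2.15), miR-801 (2.99), miR-125b-5p (1.25), miR-34a (1.05) and miR-155 (1.30) were positive at both times. MiR-21 had a log2 fold change of 0.20 at 24 h and of 0.96 at 48 h, and the difference between them, 0.75, was not past the threshold (Limma unadjusted p-value 0.354). MiR-298 had -1.31 at 24 h and -3.19 at 48 h, a difference of -1.88 (Limma unadjusted p-value 0.0265, adjusted 0.992), and miR-296-3p -1.77 and -2.46 (0.392 for the difference). MiR-370 had -1.14 and -1.43.

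The test of the difference between the time points gave 22 of 477 miRNAs with an unadjusted p-value under 0.05 (4.61%), of which 18 were on card B (9.42% of that card). Of the 477, 1 passed the adjusted threshold (0.21%), miR-380-3p, whose treated values at 24 h were those set for undetermined wells. Of the 18, 17 were lower at 48 h than at 24 h relative to their controls and 1 was higher, and after centring of each card the counts on card B were 3 and 4. MiR-200c* had a log2 fold change of 3.20 at 24 h and of -4.88 at 48 h, a difference of -8.07 (standard error 1.45, Limma unadjusted p-value 0.000311, adjusted 0.0593), which was -7.03 after centring. Its 48 h value rests on the mean of the duplicate wells described above, and was -0.90 with the first wells alone (Limma unadjusted p-value 0.865). MiR-196a* (1.21 and -3.32) and miR-881* (1.82 and -2.04) were also of opposite sign at the 2 times, with differences of -4.53 and -3.86 (Limma unadjusted p-values 0.00476 and 0.00347). MiR-547 had the opposite order, with -1.31 at 24 h and 0.89 at 48 h (difference 2.20, Limma unadjusted p-value 0.0417). At 24 h, miR-187 had a log2 fold change of -4.99 and miR-712* of -2.96 (Limma unadjusted p-values 0.224 and 0.683).

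**Figure D5:**
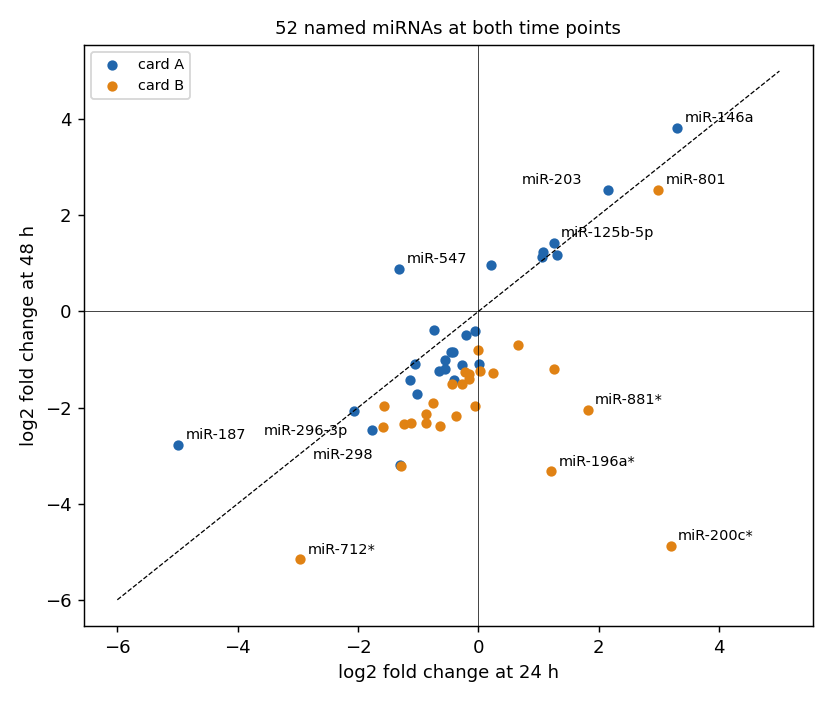
Log2 fold change at 48 h (y axis) against that at 24 h (x axis), relative to miR-26a, for the 52 named miRNAs tested at both times on card A (blue) and card B (orange). The dashed line marks equal values. MiR-146a lies at 3.30 and 3.82, and miR-200c* at 3.20 and -4.88.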

How the data were processed

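Total RNA was extracted with Trizol, reverse transcribed and pre-amplified with Megaplex primer pools and loaded onto TaqMan Rodent miRNA A and B cards. The authors deposited Ct values in a non-normalized table and, in a normalized table, ΔCt on a log2 scale relative to miR-26a (ΔCt 0 in all 15 samples), with undetermined wells at a Ct of 40. The methods of the study name Statminer and multiple reference genes, and how these relate to the deposited ΔCt could not be determined. Relative quantities and a fold change table of the authors' own comparisons were not used. Duplicate wells of card B (150 assays) were averaged over the wells with a Ct, and the non-normalized table holds 1 value for both wells of each. MiRNAs with a Ct in at least 3 of the 6 samples were tested on negative ΔCt with limma 3.58.1 in R 4.3.3, two-sided, with Benjamini-Hochberg adjustment within each card and a threshold of 0.05. The difference between 48 h and 24 h was fitted over 12 samples, with a Ct in at least 6. Tables and plots were made with matplotlib 3.10.9, pandas 2.3.3 and numpy 2.4.6 under Python 3.11.15, and the fit was tested on simulated data.

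The number of assays with a Ct limits the precision. Deviations of same-numbered samples from their group means correlated with r of 0.50, 0.51 and 0.54 over 410 miRNAs. For other numbers between the groups r was -0.46 to 0.09. The pairing by number entered only the alternatives with the replicate block. The main fit, which gave the p-values where no alternative is named, left the samples unpaired. In the alternative with each card centred, the median over the miRNAs with a Ct in all 6 samples of the Ct minus the miRNA's mean Ct was subtracted per sample and card. The other alternatives were another reference, scaling, filter, treatment of undetermined wells, sample set, table or prior variance, the replicate block, and each sample left out in turn.

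The miRNAs compared and the lists were chosen with earlier results of these data known. Named were miRNAs past the adjusted threshold, the 22 of the study's table, in each direction up to 10 of largest log2 fold change at an unadjusted p-value under 0.05 and a Ct in all 6 samples, those found in 1 group only, the 5 most abundant, and list members with an unadjusted p-value under 0.05. First members of each list are given through list medians. Relatives by seed, main strands, rat assays, miR-380-3p and miRNAs called with each card centred were named after their values were seen. Sequences and positions are from RefSeq (GRCm38.p6).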

Additional observations from a re-analysis of the deposited data

Results flagged for a closer look

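The log2 fold change of miR-380-3p, a Dlk1-Dio3 member, differed between the time points by 7.81 (Limma adjusted p-value 0.000297), and it is named here because the difference itself was tested. At 48 h its ΔCt was 12.97, 13.99 and 14.39 in untreated and 13.45, 14.17 and 14.68 in treated cells. The treated samples of 24 h, undetermined in the normalized table, have a Ct of 34.0, 31.8 and 30.9 in the non-normalized one, so the difference rests on which table is read.

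The cards carry an assay for the plant miRNA ath-miR159a, a negative control outside the comparison, and it gave a signal. On card A its Ct was 33.0, 28.2 and 26.4 in untreated and 26.5, 25.8 and 16.3 in treated replicates 1, 2 and 3, a log2 difference of 6.25 relative to miR-26a. On card B it was 33.9, undetermined and 29.9 in untreated and 30.1, 22.7 and 23.8 in treated samples, a log2 difference of 8.97 with the undetermined well at a Ct of 40. The part of this signal in the results was not tested.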

How the results depend on the processing

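The count of 3 miRNAs past the adjusted threshold was 10 (1 higher, 9 lower) among miRNAs with a Ct in every sample, 1 with undetermined wells as missing, 5 in a fit over all 15 samples and 10 over the 12 αTC1-6 samples. It was 0 with the replicate block, alone, with median centring or with each card centred, and 0 without both samples of replicate 3, where 24 had an unadjusted p-value under 0.05. Leaving out 1 sample gave 0 to 5, with 0 without cytokine-treated replicate 2 or 3 and 5 without untreated replicate 1. The count of 58 at an unadjusted p-value was 35 after median centring (19 higher, 16 lower), 36 without normalization (6 and 30), 25 against U6 and small nucleolar RNAs (10 and 15), 23 against them within each card, 38 with each card centred (16 and 22), 122 with the block and 36 to 73 without 1 sample, with 36 without cytokine-treated replicate 3. The median log2 fold change of -0.51 turned to 0.17 after median centring, with or without the block, 0.0054 against U6 and small nucleolar RNAs, 0.0936 after median centring within each card, 0.0528 with each card centred and 0.0511 with the block added. It was -0.44 without normalization, -0.47 without a filter, -0.55 with a Ct in every sample, -0.0668 against U6 and small nucleolar RNAs within each card and -0.74 to -0.30 without 1 sample. The count of 1 for the difference between the time points was 3 after median centring.

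Of 1464 values of 55 named miRNAs under alternatives, 1408 kept their direction and side of the threshold, 15 lost and 21 gained the call, and 20 of 10 miRNAs changed sign. After median centring, with or without the block, and against U6 and small nucleolar RNAs, these were miR-190 (0.30 and 0.13), miR-29a (0.20 and 0.0338) and miR-30c (0.28 and 0.11). After median centring within each card they were miR-15b* (0.0735), miR-34c* (0.55), miR-376b* (0.11), miR-467a* (0.0869), miR-467b* (0.12), miR-709 (0.68) and miR-805 (0.57), the last pair also with each card centred, with or without the block (0.18 and 0.0695). The causes were not tested. The log2 fold change of -4.88 of miR-200c* was -0.90 with the first of its duplicate wells or the non-normalized table. The alternatives within each card, those without wells under a Ct of 12 and that without both samples of replicate 3 were chosen after seeing the data. The 3 samples per group, the single reference miRNA on card A and the Ct limit of 40 bound what these values can show.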

Other observations

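Ct values were not spread evenly within a cycle. Of 3736 miRNA wells with a Ct in the 6 samples, 1297 (34.7%) had a Ct in the last 0.1 cycle below a whole number, where an even spread puts 10%. On card A this share was 54.6%, 39.5% and 54.4% in untreated replicates 1, 2 and 3 and 29.3%, 42.1% and 26.8% in treated ones. All 3 untreated Ct values lay in that range for 65 of 410 miRNAs, and all 3 treated ones for 21. The close untreated values of miR-146a, miR-547 and miR-15b are examples of differences from miR-26a near a whole cycle. The untreated Ct values of miR-26a (18.977, 16.975 and 17.945) lie in that range too, and its treated ones (18.488, 17.709 and 17.441) do not. The median SD of the untreated ΔCt was 0.831 over the 131 miRNAs without an untreated Ct in that range. It was 0.563, 0.547 and 0.589 over those with 1, 2 and 3 such values, and 0.597 over all 410. The part of this pattern in the tests was not examined.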
